A study of Mus musculus with 2 samples.

Results

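In the E12.5 mouse limb, 518 of 12271 kept cell barcodes (4.22%) carried at least 2 of the 4 secreted-protein genes Rspo3, Hhip, Apela and Cxcl14. Without those that carried any of 4 exclusion genes, 485 were left (3.95%, exact binomial 95% interval 3.61 to 4.31), the members. A barcode marks the RNA of a droplet, usually of a single cell. Members were barcodes with at least 500 detected genes, under 10% mitochondrial UMIs, at least 1 UMI of at least 2 of these 4 genes, and 0 UMIs of Myog, Cdh5, Ptprc and Gdf5, which mark differentiating muscle, endothelium, blood-derived immune cells and joint interzone. A UMI (unique molecular identifier) stands for a captured RNA molecule. The members' levels of these 8 genes follow from the rule and are given as a description. The study profiled limb muscle tissue of wild-type C57Bl/6 mouse embryos at E12.5 and at E15.5, with 1 library per age and with forelimbs and hindlimbs in the same library. The number of pooled embryos is not given in the sources used here, and no mutation, treatment or cell sort is named. With 1 library per age there was no replicate and no test. Every interval below covers counting error only.

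The 4 genes encode signals or signal modifiers with textbook roles. Rspo3 is an R-spondin: it binds Lgr receptors and, by clearing the ubiquitin ligases Znrf3 and Rnf43, keeps Wnt receptors on the cell surface. Hhip binds Hedgehog ligands at the cell membrane and limits their action, and its transcription is itself switched on by Hedgehog signalling, as is that of Ptch1 and Gli1. Apela is a short peptide ligand of the apelin receptor Aplnr, and Cxcl14 is a chemokine. In the limb bud, mesenchyme under Wnt from the ectoderm forms soft connective tissue and dermis, and mesenchyme that escapes it condenses into Sox9-positive cartilage. Axin2, Nkd1 and Apcdd1 are feedback inhibitors that Wnt/β-catenin signalling switches on. On mouse build GRCm38 the genes lie at chr10:29452416-29535867 (Rspo3), chr8:79965851-80058006 (Hhip), chr8:65028417-65037336 (Apela) and chr13:56288643-56296551 (Cxcl14), each protein coding and on the minus strand.

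The E12.5 library held 12941 barcodes and 34907675 UMIs, and the E15.5 library 5780 barcodes and 46966083 UMIs. The members summed to 1788314 UMIs and the other 11786 kept E12.5 barcodes to 32622008. Members had a median of 3390 UMIs (831 to 11273), above the 2424 of the others. A narrower comparator was the 4865 other barcodes that had 0 UMIs of the 4 exclusion genes and UMIs of at least 2 of the mesenchymal genes Prrx1, Prrx2, Twist1 and Pdgfra, called the other mesenchymal barcodes below, with a median of 2772 UMIs. The libraries shared 17 barcode sequences, 13 of them kept, and no member was among them. Levels are given as CPM, the UMIs of a gene per 1000000 UMIs of the group.

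Cxcl14 was detected in 401 members, Rspo3 in 342, Hhip in 161 and Apela in 117. Of the members, 437 had exactly 2 of the genes, 45 had 3 and 3 had all 4. Just outside the rule stood 2629 barcodes with exactly 1 of the genes and none of the exclusion genes. Most detections were at the lowest possible level: 238 of the 401 members with Cxcl14 held 1 UMI of it, and this held for 227 of 342 with Rspo3, 128 of 161 with Hhip and 101 of 117 with Apela. Rspo3 stood at 320 CPM in members and 34.2 in the other kept barcodes, Hhip at 114 and 11.9, Apela at 81.1 and 6.90, and Cxcl14 at 406 and 81.2. The members were thus 3.95% of barcodes but held 33.9% of the kept UMIs of Rspo3, 34.3% of Hhip, 39.2% of Apela and 21.5% of Cxcl14. The rule sets these contrasts.

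The pair Rspo3 and Cxcl14 alone made up 235 members (48.5%). Hhip with Cxcl14 gave 70, Apela with Cxcl14 gave 56, Rspo3 with Hhip gave 47, Rspo3 with Apela gave 19 and Hhip with Apela gave 10. Every pair was found in more kept barcodes than the product of the 2 genes' own shares gives, from 1.35 times for Hhip with Cxcl14 (108 against 79.8) to 2.46 times for Hhip with Apela (28 against 11.4). Deep barcodes raise all genes together, so each barcode was also thinned to 2000 UMIs. The ratios then ran from 1.19 to 2.39, with 11 barcodes behind the highest. These ratios describe 1 library and have no test.

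**Figure D1:**
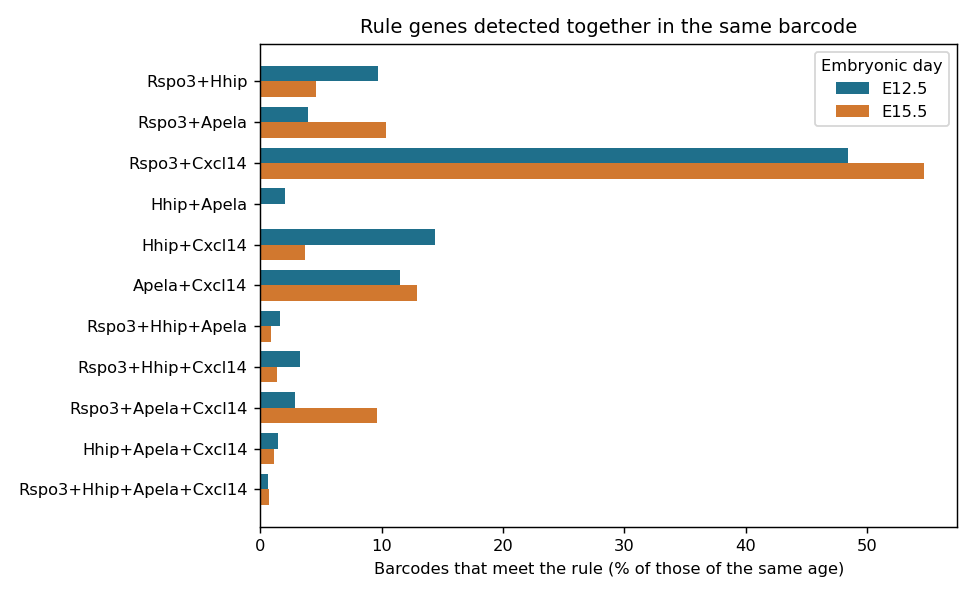
Barcodes that met the rule, by the exact combination of rule genes detected (y axis), as a percentage of all such barcodes of the same age (x axis), 485 at E12.5 and 435 at E15.5. Rspo3 with Cxcl14 is the longest bar at both ages (48.5% and 54.7%), and Hhip with Apela alone counts 10 barcodes at E12.5 and 0 at E15.5.

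Depth moved with membership. Over 4 depth bins of nearly equal size the share of members was 1.24%, 2.90%, 3.88% and 7.79% from the shallowest to the deepest bin. At 2000 UMIs each, 218 of 8212 barcodes met the rule (2.65%, 2.32 to 3.03). Thinning left out 62 members and 3997 other barcodes as too shallow. Free RNA in the droplets can give a UMI to a cell that does not express a gene, so the same 2-of-4 criterion was read in barcodes that carried an exclusion gene. At 2000 UMIs it was met by 1 of 212 barcodes with Cdh5 (0.472%), 0 of 55 with Ptprc (an upper limit of 3 counts, 5.45%, and of 6.49% by the exact interval), 2 of 370 with Myog (0.541%) and 7 of 580 with Gdf5 (1.21%), against 2.75% to 2.84% of barcodes without the marker in question. Before thinning, 1.95% of barcodes with Cdh5 met it at a median of 3388 UMIs, 1.88% of those with Myog at 3728, and 2.34% of those with Gdf5 at 2461. At 2000 UMIs Cxcl14 was found in 10% of barcodes with Gdf5, against 5.19% with Cdh5, 5.45% with Ptprc and 5.68% with Myog. The Gdf5 share may therefore hold true expression as well as free RNA, which was not tested. A droplet holding 2 cells can also join genes of different cells: 104 of 485 members (21.4%, 17.9 to 25.4) were among the barcodes with the highest doublet scores, against 9.89% of the others. The part of depth, free RNA and doublets in the results below was not tested, and values without the doublet-scored barcodes are given where they matter.

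Most members had mesenchymal transcripts. At 2000 UMIs, 79.4% of members and 61.0% of the others had a UMI of Prrx1, a transcription factor of limb mesenchyme. Twist1, a mesenchymal transcription factor, was at 228 CPM (207 to 251) against 103, and Pdgfra, a growth factor receptor of fibroblasts, at 412 against 342. Summed markers of endothelium, immune cells, muscle and blood were lower than in the other kept barcodes, but mostly not lower than in the other mesenchymal barcodes. The 8 endothelial markers summed to 21.2 CPM in members, 101 in the other kept and 20.6 in the other mesenchymal barcodes. The 8 immune markers summed to 3.91, 47.9 and 7.51 CPM in the same order, with Csf1r, Tyrobp, C1qa, C1qb and Lyz2 at 0 in members. Among the 10 epithelial markers Krt5, Krt14, Krt15, Cdh1, Trp63 and Wnt7a were at 0, and the list was level, at 31.3, 32.6 and 29.7 CPM. The 9 muscle markers summed to 125, 1001 and 121 CPM with Myf5 at 0. Haemoglobin and other erythroid markers summed to 1026, 2521 and 845 CPM.

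The label speaks of a single mesenchyme, and the data went against that part of it. When barcodes were clustered on variable genes without the 8 rule genes, members were spread over 19 of the 25 clusters, and no cluster held more than 18.97% of them. Of the 15 nearest neighbours of a member, 13.3% were members, against 3.45% for the neighbours of other barcodes and 3.95% of all kept barcodes. A few members lay in clusters of other leading genes: 6 in a cluster led by the muscle progenitor genes Msc and Pax7, 2 in a cluster led by haemoglobin genes, and 8 in each of 2 clusters led by the cartilage genes Matn1 and Hapln1. For 118 members (24.3%) none of the 15 neighbours was a member, and the highest number for any member was 8. The members are therefore called by their rule here.

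Members were densest in 5 of the clusters. In a cluster led by Calb2, Kera and Lum, with replication histone genes and Apcdd1 among its top 10 genes, 53 of 332 barcodes were members (16.0%, 12.2 to 20.4). Its median depth was 4038 UMIs. In a cluster led by Alcam, Sostdc1 and Tpd52l1, with the limb transcription factor genes Lhx9, Meox2 and Prrx1, 86 of 599 were members (14.4%, 11.6 to 17.4). That cluster was not deep, with a median of 2361 UMIs, and Rspo3, Hhip, Apela and Cxcl14 were found in 18.5%, 11.7%, 7.0% and 36.2% of its barcodes. A cluster led by replication histone genes held 92 members of 998 barcodes (9.2%), a cluster led by Aspn, Akap12 and Hoxb4, with Apcdd1, Lix1 and Hoxc5, held 52 of 635 (8.2%), and a cluster led by the mitotic genes Cenpf, Aspm and Ccnb2 held 46 of 615 (7.5%).

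**Figure D2:**
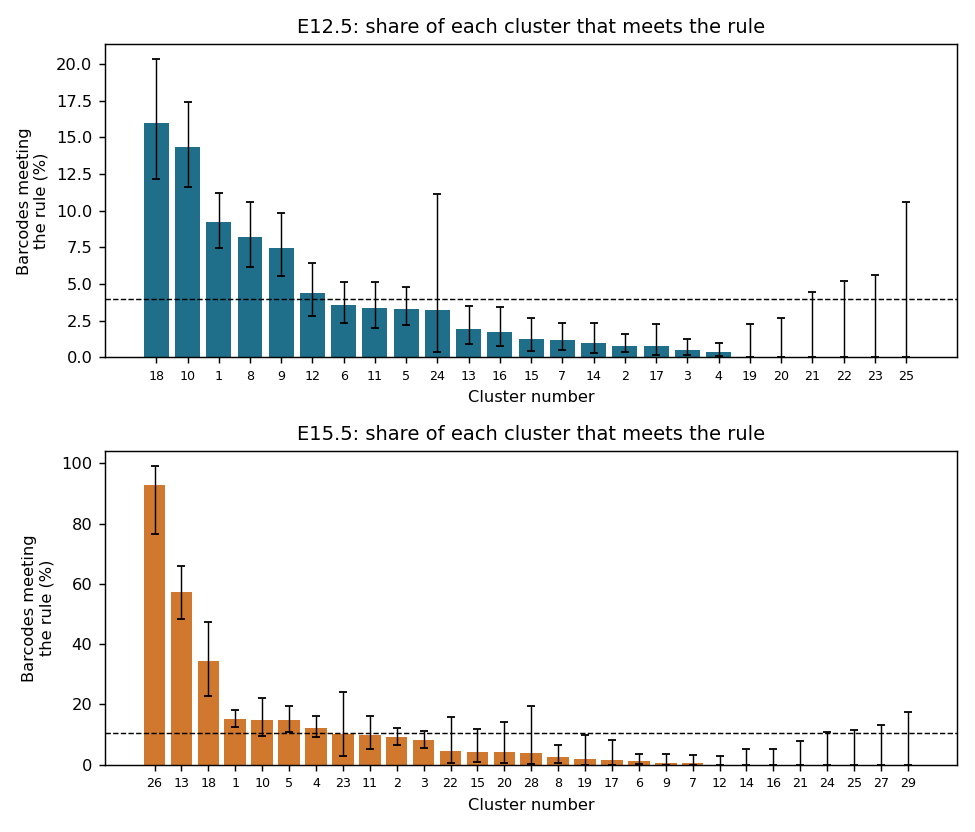
Share of each cluster's barcodes that met the rule (y axis, %) for the E12.5 library (top) and the E15.5 library (bottom), with exact binomial 95% intervals and the library's overall share as a dashed line; clusters (x axis) were numbered separately in each library. At E12.5 no cluster passes 16.0%, while at E15.5 one cluster of 28 barcodes reaches 92.9% and another of 129 reaches 57.4%.

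Wnt target genes were read first, and they were mixed: Apcdd1 and Axin2 were high in members, but the list's median ratio was near that of all genes. Of 9176 genes at 10 CPM or more over all kept E12.5 barcodes, 20 were at least 2-fold higher in members than in other kept barcodes (0.218%) and 214 at least 2-fold lower (2.33%), with a median log2 ratio of 0.03. Of the 10 Wnt target genes listed, 7 passed the level filter, and 2 of these were at least 2-fold higher and none 2-fold lower. At 1.5-fold, 3 of the 7 were higher and 0 lower, beside 2.35% and 5.08% of all genes. Over other mesenchymal barcodes the counts were also 3 and 0, beside 1.22% and 3.37%. Of the 7, 4 had a ratio above 1, beside 55.3% of all genes, and the median log2 ratio of the 7 was 0.13 (0.02 over other mesenchymal barcodes). Apcdd1, which encodes a membrane inhibitor of Wnt receptors, had the highest log2 ratio of all genes, 1.60 (1.27 to 1.91), with 96 UMIs and 53.7 CPM in members (43.5 to 65.6) against 17.7 CPM. Axin2, a scaffold of the β-catenin destruction complex, was at 84.996 CPM (72.0 to 99.6) against 41.2, a log2 ratio of 1.04 (0.79 to 1.29). Both gene ratios were at least as large without the doublet-scored barcodes, 1.66 and 1.15.

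Nkd1, an inhibitor of Dishevelled, was at 25.7 against 14.3 CPM (log2 ratio 0.84, 0.37 to 1.28), and its relative Nkd2 at 19.01 against 10.7 (0.83, 0.28 to 1.34). Other listed targets were near or below the level of the other barcodes. The log2 ratio was 0.13 (-0.17 to 0.41) for Lef1, a DNA-binding partner of β-catenin, -0.05 (-0.15 to 0.05) for the cell cycle gene Ccnd1, and -0.37 (-0.49 to -0.25) for Tcf7l2. Against the other mesenchymal barcodes the ratios of Apcdd1, Axin2 and Nkd1 were 1.00 (0.66 to 1.33), 0.60 (0.34 to 0.85) and 0.87 (0.38 to 1.34).

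The receptors and ubiquitin ligases that receive R-spondins and Wnts were mostly near the level of other barcodes. Of 19 listed genes for R-spondin and Wnt reception, 12 passed the filter and 4 had a ratio above 1, beside 55.3% of all genes. At 1.5-fold, 0 were higher and 1 lower than in other kept barcodes, beside 2.35% and 5.08% of all genes. Against other mesenchymal barcodes 0 were higher and 2 lower, beside 1.22% and 3.37%. Lgr4, the R-spondin receptor with the most UMIs of the 3 Lgr genes, was at 40.3 CPM against 54.7, a log2 ratio of -0.44 (-0.80 to -0.10). Lgr5 had 12 UMIs in all members and Lgr6 had 1. Znrf3 was at 10.6 and 11.0 CPM, and Rnf43 had 0 UMIs in members and 0.399 CPM in the others. The other R-spondins, Rspo1, Rspo2 and Rspo4, had 7, 6 and 4 UMIs, and their sum of 9.51 CPM was above the 3.86 CPM of other kept and the 5.43 CPM of other mesenchymal barcodes. Among Wnt ligands, Wnt5a, a ligand best known for signalling without β-catenin in the growing limb, was at 233 CPM against 165 (log2 ratio 0.50, 0.35 to 0.64).

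Secreted Wnt inhibitors went both ways. Of 13 listed, 7 passed the filter, and 4 of these had a ratio above 1 over other kept barcodes (median log2 ratio 0.38). Over other mesenchymal barcodes 2 of the 7 did (median -0.17), beside 55.3% and 51.2% of all genes. At 1.5-fold, 2 were higher and 2 lower against either comparator. The values that follow are over other kept barcodes. Sostdc1, an extracellular inhibitor of Wnt and BMP signals, was at 27.4 CPM from 49 UMIs against 11.8 (1.22, 0.76 to 1.65). Frzb was at 54.8 against 36.3 CPM (0.60, 0.28 to 0.89) and Dkk2 at 126 against 93.5 (0.43, 0.23 to 0.63). Sfrp2 was lower, at 102 against 220 CPM (-1.10, -1.32 to -0.89). Sfrp2 also stands in the list of joint interzone markers, and Gdf5, an interzone gene, was excluded by the rule.

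Of the listed Hedgehog target genes only 3 passed the filter, and 1 of them had a ratio above 1, beside 55.3% of all genes, which says little of the group. Ptch1, the Hedgehog receptor and a target of the pathway, was at 272 CPM (248 to 297) in members and 294 in the others, a log2 ratio of -0.11 (-0.25 to 0.02). Gli1, a transcription factor and target, was at 109 (94.3 to 125) against 71.9 CPM, a log2 ratio of 0.60 (0.38 to 0.81). The ligand genes Shh and Dhh had 0 UMIs in members. Gli2, Gli3 and Smo had log2 ratios of 0.04, 0.13 and 0.03.

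Few UMIs of Apela partners were seen in members. Aplnr, the receptor of the Apela peptide, had 0 UMIs in 1788314 (0 to 2.06 CPM) and was at 4.84 CPM in the other kept barcodes and 0.335 CPM in the other mesenchymal barcodes. Apln, its other ligand, had 8 UMIs, and both genes together were at 4.47 CPM in members, 8.89 in other kept and 3.42 in other mesenchymal barcodes. Cxcl12, a chemokine of stromal cells, was at 162 CPM against 99.8 (0.70, 0.52 to 0.87), while its receptor Cxcr4 had 1 UMI.

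Among limb patterning genes, 8 of the 22 that passed the filter were at least 1.5-fold higher in members and 2 at least 1.5-fold lower, beside 2.35% and 5.08% of all genes, and the list's median log2 ratio was 0.48. The higher ones included Ebf3 at 259 against 134 CPM (0.95, 0.81 to 1.09), Ebf1 at 338 against 212 (0.68, 0.56 to 0.80) and Irx3 at 43.6 against 24.6 (0.83, 0.47 to 1.16). Irx5, just under the filter, was at 20.1 against 9.04 CPM (1.15, 0.61 to 1.66). Against the other mesenchymal barcodes 1 of the 22 was at least 1.5-fold higher, Ebf3 at 0.65, and 2 were at least 1.5-fold lower, beside 1.22% and 3.37% of genes, and the median was 0.18. Shox2, a gene of proximal limb growth, was at 882 against 617 CPM, but its ratio over other mesenchymal barcodes was 0.12 (0.05 to 0.20).

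Other high ratios fell on genes of several kinds. Crabp1, a cytoplasmic retinoic acid binding protein, was at 325 CPM (300 to 353) against 156 (1.06, 0.93 to 1.18). Osr1, a transcription factor of muscle connective tissue, was at 116 against 60.5 (0.94, 0.72 to 1.14), and Igf1, a growth factor, at 202 against 104 (0.96, 0.80 to 1.11). These ratios are over all other kept barcodes. With the other mesenchymal barcodes as comparator, 0 of 11 filtered retinoic acid genes reached a 1.5-fold excess, beside 1.22% of all genes. Nor did any of 5 listed muscle connective tissue genes or 13 growth genes. A 1.5-fold deficit was seen for 2, 0 and 0 genes of these lists. Hoxc5 was at 31.3 against 12.48 CPM (1.33, 0.90 to 1.73), Lix1 at 94.5 against 41.2 (1.20, 0.96 to 1.43) and the lipocalin gene Apod at 43.1 against 18.9 (1.19, 0.83 to 1.54). Jag1, a Notch ligand, rested on 43 UMIs, 24.0 against 9.38 CPM (1.36, 0.86 to 1.82). The transcriptional co-regulator gene Cited1 rested on 64 UMIs, 35.8 against 13.9 CPM (1.37, 0.96 to 1.75). Erc2 (1.18), Tmem132c (1.11), Kcnk2 (1.07) and Hist1h2bh (1.19) complete the 12 highest. Hist1h2bh belongs to a family of near-identical histone genes among which reads can be shared, so its value is uncertain.

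Against the other mesenchymal barcodes, 10 of 9172 genes were at least 2-fold higher (0.109%) and 85 at least 2-fold lower (0.927%). The level filter was taken over all kept barcodes, so genes of other cell types could pass it. With the filter over members and other mesenchymal barcodes only, chosen after seeing the data, 8 were higher and 67 lower. Cited1 (1.47, 1.04 to 1.88) and Jag1 (1.17, 0.65 to 1.67) were again among the 8 highest. Selenop, a secreted selenium carrier, was at 44.2 CPM against 21.2 (1.06, 0.69 to 1.42), and Fgf9, a growth factor, had 29 UMIs and 16.2 against 6.37 CPM (1.35, 0.70 to 1.96). Ank1 (1.51) and Synpo2 (1.05) rested on 16 and 36 UMIs. Mybpc1 and Plvap had 10 and 3 UMIs, and their intervals (-0.07 to 2.13 and -1.40 to 2.95) reach below 0. At the low end stood Gria2, a glutamate receptor subunit, with 15.1 CPM against 55.2 (-1.87, -2.48 to -1.32), and the BMP antagonist Nog with 4.47 against 15.6 (-1.80, -3.03 to -0.80). Olfr1369-ps1, Pf4, Ctla2a, Tnnt2, 4930523C07Rik and Cox4i2 made up the rest, each with 1 to 7 UMIs in members.

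**Figure D3:**
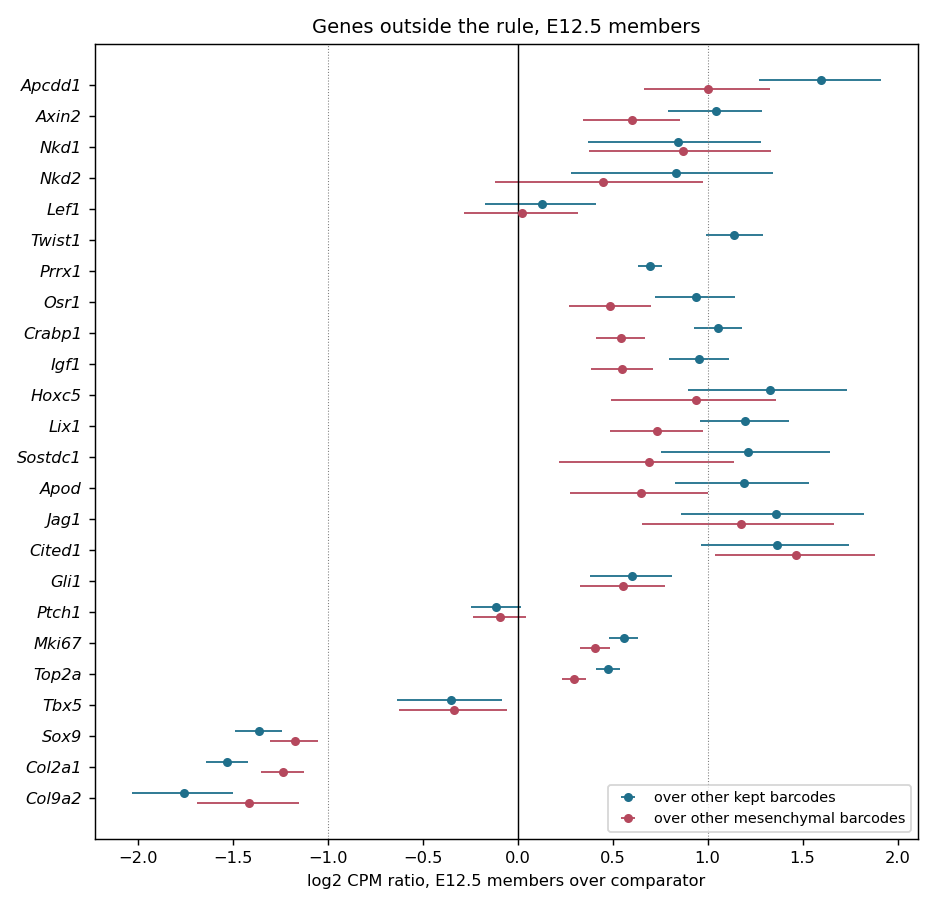
log2 CPM ratio (x axis) of 24 genes outside the rule (y axis) in the 485 E12.5 members over other kept barcodes (blue) and over other mesenchymal barcodes (red), with 95% intervals for counting error; dotted lines mark 2-fold, and Twist1 and Prrx1 have no red point because they define that comparator. Apcdd1 lies farthest to the right over other kept barcodes (1.60) and the cartilage genes Sox9, Col2a1 and Col9a2 lie left of -1.

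Cartilage genes were low in the members. All 12 chondrocyte markers were at least 2-fold lower than in other kept barcodes, and 10 of 12 were so against the other mesenchymal barcodes (medians -1.60 and -1.24), beside 2.33% and 0.927% of all genes. Sox9, the transcription factor of cartilage commitment, was at 301 CPM (276 to 328) against 776 (-1.36, -1.49 to -1.24). Col2a1, the main cartilage collagen, was at 376 against 1086 CPM (-1.53, -1.64 to -1.42), and Acan, its proteoglycan, at 36.3 against 129 (-1.82, -2.20 to -1.47). Without the doublet-scored barcodes Sox9 and Col2a1 stood at -1.67 and -1.90. All 7 filtered muscle markers and all 3 endothelial ones were also 2-fold lower than in other kept barcodes, beside 2.33% of genes, but 0 of 7 and 0 of 3 were so against the other mesenchymal barcodes (medians -0.07 and 0.25). Genes of muscle and macrophages (Tnnt2, Tceal7, Lmod3, Klhl41, Myl4, Mymx, Mrc1) with Ctla2a made up the 8 lowest ratios, each with 1 to 3 UMIs in members. The rule removed barcodes with Myog, Cdh5 or Ptprc, so these low ratios follow in part from it.

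Proliferation genes were modestly higher. Of 25 listed, 22 had a ratio above 1, beside 55.3% of all genes, with a median log2 ratio of 0.32, and 22 did so against the other mesenchymal barcodes with a median of 0.22, beside 51.2% of genes. Mki67, a marker of cycling cells, was at 844 CPM (802 to 887) against 573 (0.56, 0.48 to 0.64), and Top2a, needed to separate replicated DNA, at 1265 against 910 (0.48, 0.41 to 0.54). Pcna and Mcm2, of DNA replication, were at -0.01 and 0.01. Cdkn1c, a cell cycle inhibitor, was at 1588 CPM against 2137 (-0.43, -0.48 to -0.37). The clusters led by histone and mitotic genes had median depths of 3370 and 3181 UMIs, against 2453 over all kept barcodes. With members chosen on barcodes thinned to 2000 UMIs the ratio of Mki67 was 0.20 and that of Top2a 0.06.

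Each rule gene was also read on its own. Barcodes without the exclusion genes were split by which rule gene they carried, and those with exactly 1 of the 4, none of them members, were set beside the 7597 with none. In the 1516 barcodes with Cxcl14 only, Apcdd1 was at 40.9 CPM against 14.1 (log2 ratio 1.54), Axin2 at 70.8 against 37.8 (0.90) and Twist1 at 191 against 94.9 (1.01). In the same barcodes Ptch1 was at 196 CPM against 336 (-0.78) and Col2a1 at 505 against 1335 (-1.40). Cxcl14 thus came with higher Apcdd1 and Axin2 and with lower Ptch1 and Col2a1.

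The 256 barcodes with Hhip only read otherwise. Ptch1 was at 488 CPM (440 to 540, log2 ratio 0.54), Gli1 at 137 (112 to 166, 0.91) and Jag1 at 20.9 (11.9 to 33.9, 1.09). Col2a1 was at 1671 CPM (0.32), above its level in barcodes with none, and Axin2 (0.23) and Twist1 (0.14) were close to theirs. Nkd1 was seen as 1 UMI. Apcdd1 was nonetheless higher, 28.7 CPM from 22 UMIs (1.03). Among all 417 barcodes with Hhip, members included, 8 of 9163 genes were at least 2-fold higher than in those without (0.0873%) and 81 at least 2-fold lower (0.884%). The highest of the former with 20 or more UMIs were Igfbp7 (40.6 against 9.27 CPM), Jag1 (30.4 against 10.0) and Calb2 (58.0 against 22.5).

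Apela and Rspo3 gave further patterns. The 151 barcodes with Apela only had Grem1, a BMP antagonist, at 127 CPM against 37.9 in barcodes with none (1.75), Kera, a matrix proteoglycan gene, at 130 (1.62), Hand2, a posterior limb transcription factor, at 125 (1.10) and Apcdd1 at 32.4 (1.21). The 706 barcodes with Rspo3 only also had higher Grem1 (74.9 CPM, 0.98) but not Apcdd1 (14.98 CPM, 0.09), Axin2 (36.2 CPM, -0.06) or Twist1 (98.1 CPM, 0.05). Of 9163 genes, 6 were at least 2-fold higher in the 1048 barcodes with Rspo3 than in those without (0.0655%) and 52 lower (0.567%), led by Ephb1 (26.5 against 11.3 CPM) and Shisa3 (25.6 against 11.5). For the 268 with Apela these counts were 31 (0.338%) and 184 (2.01%), and for the 1917 with Cxcl14 7 (0.0764%) and 100 (1.09%).

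**Figure D4:**
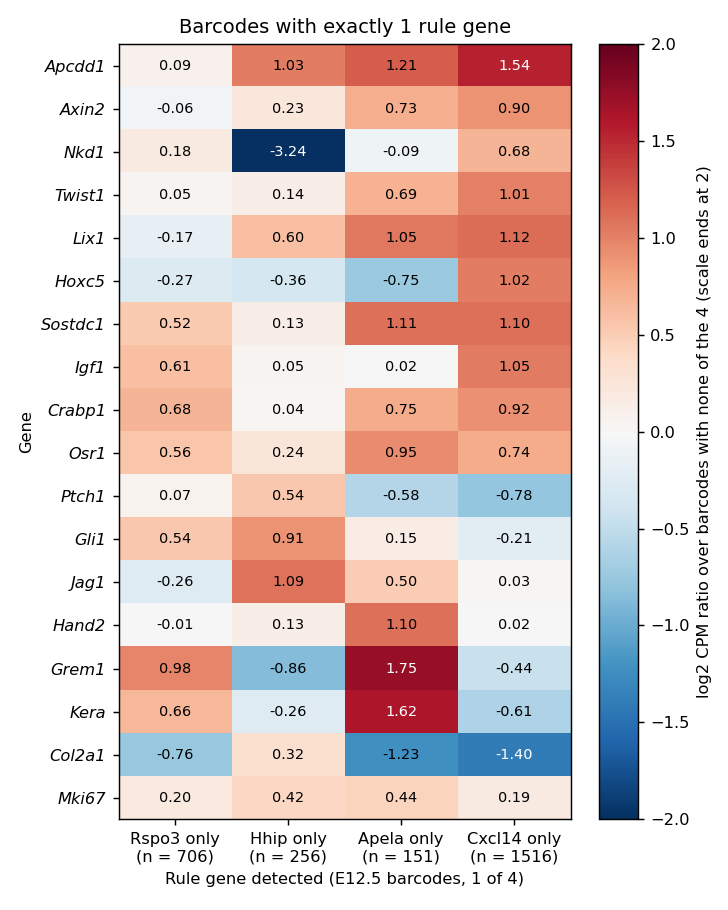
log2 CPM ratio (colour and printed value) of 18 genes (rows) in E12.5 barcodes with exactly 1 of the rule genes (columns, with the number of barcodes) over the 7597 barcodes with none of them. Apcdd1 is 1.54 in the Cxcl14 column and 0.09 in the Rspo3 column, Ptch1 is 0.54 with Hhip and -0.78 with Cxcl14, and the value for Nkd1 with Hhip rests on 1 UMI.

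Similar splits were seen within the members. Members with Hhip had Ptch1 at 403 CPM and those without at 203 (log2 ratio 0.99, 0.73 to 1.25), while members with Cxcl14 had 223 and those without 535 (-1.26, -1.55 to -0.98). For Axin2 the values were 89.8 and 82.5 CPM with and without Hhip (0.12, -0.38 to 0.61), and 94.2 and 35.7 with and without Cxcl14 (1.40, 0.48 to 2.49). Lix1 was at 109 CPM with Cxcl14 and 14.3 without, from 165 and 4 UMIs. Kera was at 109 CPM in members with Apela and 23.4 in those without (2.23, 1.54 to 2.92). By exact pair, Ptch1 was highest with Hhip and Apela (664 CPM, 10 members) and Rspo3 and Hhip (553 CPM, 47 members), and lowest with Apela and Cxcl14 (160 CPM, 56 members). Members without a given gene must hold 2 of the other 3, so these splits are not independent of each other.

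With more rule genes in a barcode, Apcdd1 was higher: 14.1 CPM with none, 32.4 with 1, 47.2 (37.1 to 59.1) with 2 and 106 (65.6 to 162) with 3 or 4. Col2a1 went the other way, 1335, 697, 387 and 293 CPM. Ptch1 had no such order, with 336, 267, 252 and 434 CPM. The median depth of these groups was 2275, 2672, 3243 and 3648 UMIs.

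At E15.5 the rule was met by 435 of 4106 kept barcodes (10.6%, 9.67 to 11.6), but at 2000 UMIs by 84 of 3834 (2.19%, 1.75 to 2.71), beside 2.65% at E12.5. Kept barcodes had a median of 9518 UMIs at E15.5 and 2453 at E12.5. The 2-of-4 criterion without the exclusion genes was read at 2000 UMIs here too. Of E15.5 barcodes with Myog 2.06% (7 of 339) met it, against 2.29% without. Of those with Cdh5 0 of 188 did (an upper limit of 3 counts, 1.60%, and of 1.94% by the exact interval). With Gdf5 the share was 2.36% (3 of 127) against 2.27% without. With Ptprc it was 0.746% (1 of 134, 0.0189 to 4.09) against 2.32% without. The overall 2.19% used the full rule with its exclusions, so it is not quite the same measure. That value was near the Myog and Gdf5 values and above the exact limit for Cdh5, and the Ptprc interval held it. Barcodes with Gdf5 may express rule genes, so their value is not a measure of free RNA alone. How much of the E15.5 share is background was not tested, and no change between the ages is read from it. Hhip was found in 12.4% of the E15.5 barcodes that met the rule, against 33.2% at E12.5, and Apela in 35.6% against 24.1%.

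Of the 15 neighbours of an E15.5 barcode that met the rule, 29.3% also met it, against 7.998% for the others and 10.6% of all kept barcodes. Relative to the overall share this was 2.77-fold, beside 3.37-fold at E12.5. Some small E15.5 clusters consisted mostly of barcodes that met the rule. In a cluster of 28 barcodes led by Twist2, Kif14 and Lix1, 26 met it (92.9%, 76.5 to 99.1). In a cluster of 129 led by Twist2, Ch25h and Irx5, 74 met it (57.4%, 48.4 to 66.0). Apcdd1, Irx5 and Thy1, a surface protein of fibroblasts, were among the top 10 genes of both clusters. In the first, Apela was found in 85.7% and Cxcl14 in 92.9% of barcodes. These clusters held 5.98% and 17.0% of the E15.5 barcodes that met the rule. The largest group, 100 barcodes (23.0%), lay in a cluster of 658 led by Fst, Sfrp4 and Tmem158, where 15.2% met the rule.

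Apcdd1 was also high at E15.5, at 50.5 CPM against 10.6 in other kept barcodes of that age (2.25, 2.02 to 2.48), as were Axin2 (1.68, 1.46 to 1.89), Nkd1 (1.41, 1.14 to 1.66), Twist1 (1.46, 1.39 to 1.53) and Crabp1 (1.52, 1.47 to 1.57). Of 8785 genes, 59 were at least 2-fold higher at E15.5 (0.672%) and 303 at least 2-fold lower (3.45%). Several genes with a low or uncertain ratio at E12.5 were high at E15.5: Twist2 had log2 ratios of 0.48 and 2.32 at E12.5 and E15.5, Wnt4 -0.45 and 1.91, and Thy1 1.02 (-0.67 to 2.35, 5 UMIs) and 2.61. Others were high at E12.5 only: Cited1 had 1.37 and -1.24, Jag1 1.36 and 0.27, and Hoxc5 1.33 and -0.85 (-2.52 to 0.44). The comparators differ in makeup between the ages, and no test of a difference between ages was possible.

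**Figure D5:**
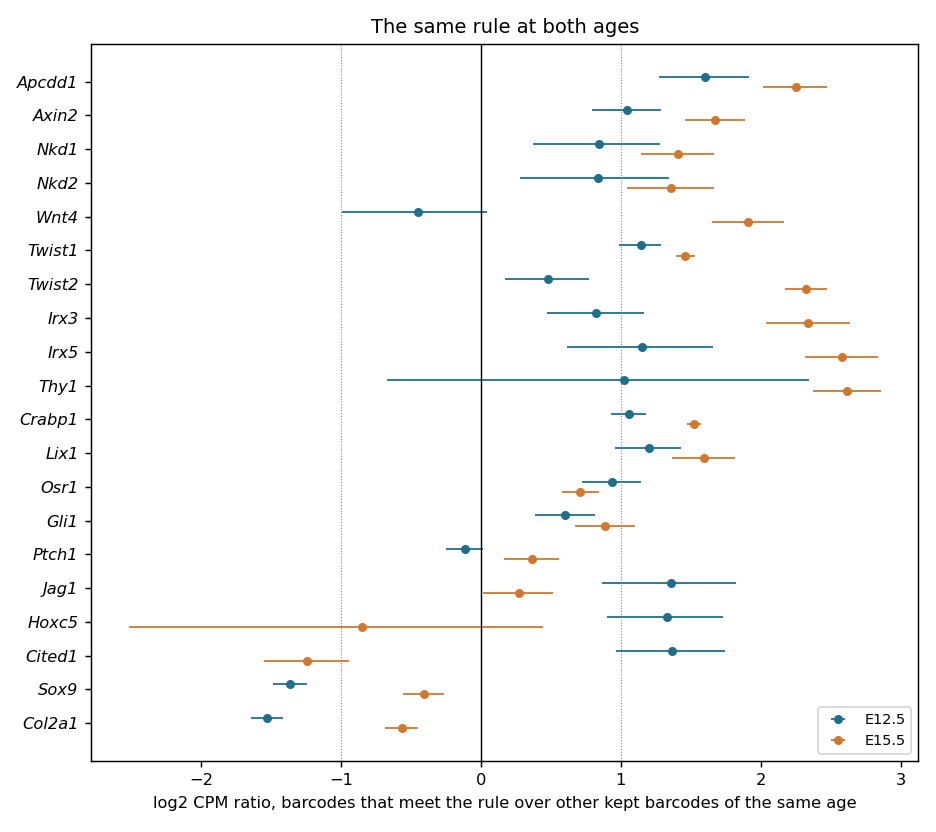
log2 CPM ratio (x axis) of 20 genes (y axis) in barcodes that met the rule over other kept barcodes of the same age, at E12.5 (blue) and E15.5 (orange), with 95% intervals for counting error and dotted lines at 2-fold. Apcdd1 is beyond 2-fold at both ages (1.60 and 2.25), Twist2 and Wnt4 at E15.5 only (2.32 and 1.91), and Cited1 lies on opposite sides of 0 (1.37 and -1.24).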

How the data were processed

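Per the labels, both libraries were made with 10x Genomics Chromium 3′ chemistry. The deposited matrices hold raw UMI counts, and per the file headers the software was Cell Ranger 4.0.0. Build mm10 and Seurat 4.3.0 are named in the submitters' processing notes, and the annotation release is not given in the sources used here. Of 32285 genes, 32158 matched GENCODE vM21 (GRCm38) identifiers. Raw counts were summed per group and given as CPM, with exact Poisson intervals. Log2 ratios have exact conditional intervals and shares exact Clopper-Pearson intervals, all at 95% and for counting error only. Beside a share of 0, the limit of 3 counts is also given. A gene at 0 was set to 3 UMIs for ranking. Genes under 10 CPM over all kept barcodes of an age, and the 8 rule genes, were left out of gene counts. Doublets were scored against 2 simulated doublets per barcode, and the top 0.8% per 1000 deposited barcodes counted as scored. Clusters came from 2000 variable genes, 30 principal components, 15 neighbours and Leiden at resolution 1 (leidenalg 0.10.2, scikit-learn 1.9.0, Python 3.11.15). Named genes were the rule genes, the 12 highest and 8 lowest ratios over other kept barcodes, the 8 highest and 8 lowest over other mesenchymal barcodes, and listed pathway genes; Igfbp7, Calb2, Ephb1, Shisa3, Nkd2, Thy1 and cluster genes were named after their values were seen. The members and lists were chosen with earlier results of these data known. Intervals and ratios were run on simulated Poisson counts from 1 pooled profile. That is the model behind the intervals, so the run checks the computation and not the spread between barcodes. Of genes simulated at 2-fold and 0.5-fold, 62% and 40% passed the 2-fold limit. With 1 library per age, no replicate and no test was available.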

Additional observations from a re-analysis of the deposited data

How the results depend on the processing

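No paired analysis was possible because each age had 1 library. Of 64 log2 ratios followed, some genes being counted against both comparators, 45 were at least 2-fold apart, 39 of these kept their direction under every alternative and 7 stayed past 2-fold under all. Genes at least 2-fold higher and lower than other kept barcodes (20 and 214), and higher and lower than other mesenchymal barcodes (10 and 85), were counted again. With at least 3 of the 4 genes they numbered 268, 859, 224 and 762, without Rspo3 in the rule 42, 381, 33 and 274, and without Cxcl14 82, 459, 70 and 369. On barcodes thinned to 2000 UMIs they were 63, 470, 66 and 380, among male barcodes 315, 684, 308 and 605, with a filter of 5 CPM 45, 418, 28 and 209, with 20 CPM 9, 98, 1 and 38, and at 3-fold 1, 98, 0 and 14. Without doublet-scored barcodes the counts higher were 37 and 23, and 137 genes were lower than in other mesenchymal barcodes; among female barcodes 23 and 130 genes were higher and lower than in the latter. With a comparator free of exclusion-gene UMIs, an alternative chosen after seeing the data, 13 were higher and 135 lower. The settings with the highest counts had the fewest members, 48 with at least 3 genes and 64 among male barcodes, beside 485. Fewer members give fewer UMIs per gene, so counting error is larger there. The number of genes tested also differs with the CPM filter and the barcodes kept, so these counts are not shares. The cause of the differences between settings was not tested.

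The E12.5 share (3.95%) was 4.57% with a minimum of 1000 genes, 3.46% without doublet-scored barcodes, 0.391% with at least 3 genes, 1.499%, 2.92%, 3.26% and 1.01% without Rspo3, Hhip, Apela and Cxcl14 in the rule, 2.65% thinned, and 3.41% and 4.54% among male and female barcodes. The E15.5 share (10.6%) was 1.46% with at least 3 genes, 3.21%, 8.13% and 3.04% without Rspo3, Apela and Cxcl14, 2.19% thinned and 13.0% among male barcodes. The share of members among members' neighbours (13.3%) was 12.46% without doublet-scored barcodes, 1.94% with at least 3 genes, 7.36%, 9.96%, 11.5% and 4.52% without Rspo3, Hhip, Apela and Cxcl14, 7.13% thinned, 10.9% and 15.3% among male and female barcodes, and 12% with 15 principal components. These values are to be read beside the members' own share of kept barcodes, which also differed between settings. That share was 3.95%, and 0.391% with at least 3 genes, 1.499% without Rspo3 and 1.01% without Cxcl14.

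Against other mesenchymal barcodes 6 genes changed sign: Ctla2a (1.49 thinned), Fgf9 (-0.54 with at least 3 genes), Nog (0.47 with at least 3 genes), Mybpc1 (-0.35 thinned, -1.41 female), Pf4 (0.57 without doublet-scored barcodes, 0.65 female) and Plvap (-0.16 without Hhip). Some ratios over other kept barcodes leaned on 1 rule gene: without Cxcl14 in the rule Axin2 was 0.42, Lix1 0.46 and Ptch1 0.73, and without Hhip Jag1 was 0.69. Apcdd1 ranged from 1.19 to 2.80.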

Other observations

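Genes of limb type went both ways in the members. Tbx5, a forelimb transcription factor, had 114 UMIs in the E12.5 members and Pitx1, a hindlimb one, had 607, a log2 ratio of -2.41 (-2.71 to -2.12), against -1.42 (-1.48 to -1.35) in the other kept barcodes and -1.74 (-1.83 to -1.64) in the other mesenchymal barcodes. Tbx5 over Tbx4, another hindlimb gene, was 0.42 (0.01 to 0.85) in members and 0.64 (0.56 to 0.73) in the others. The pair Tbx5 and Pitx1 therefore leaned further to the hindlimb gene in members, while the interval for Tbx5 and Tbx4 in members held the value of the others. Of the 6 limb type genes listed (these 3 with Hoxc10, Hoxc11 and Isl1), 2 had a ratio above 1 and 4 below 1. This held against other kept and other mesenchymal barcodes, beside 55.3% and 51.2% of all genes above 1. No lean of the members to the hindlimb is read from 1 pair.

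BMP antagonists were low or high by gene. Of 7 that passed the filter, 3 were at least 2-fold lower than in other kept barcodes, beside 2.33% of genes, and 2 were so against other mesenchymal barcodes, beside 0.927% (list medians -0.55 and -0.10). Over other kept barcodes these were Nog (-2.55, -3.77 to -1.56), Bmper (-1.22, -1.99 to -0.55) and Chrdl1 (-1.18, -1.83 to -0.60). Grem1 was at 59.3 CPM against 36.8 (0.69, 0.39 to 0.98).

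Barcodes could be told apart by sex from Xist and Y-linked UMIs, and 64 of 361 sexed members were male (17.7%, 13.9 to 22.1), against 22.5% of the other sexed barcodes. Apcdd1 had a log2 ratio of members over others of 2.80 (2.04 to 3.52) among male and 1.19 (0.73 to 1.63) among female barcodes, and Igf1 0.21 (-0.28 to 0.67) and 1.42 (1.22 to 1.61). Embryos were pooled in 1 library, so that sex, embryo and limb cannot be told apart here.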
